A study of Homo sapiens with 6 samples.

Results

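The genes described here encode the proteins that hold a cell to its substrate at focal adhesions and that bind, cross-link or turn over actin filaments. A list of 35 such genes was taken by name, and each was read from the probe set with the highest mean over all 6 arrays among those annotated to that gene alone. This gave 32 genes of 18417 on the array. FLNA and CAP1 had no such probe set in the annotation, and EZR had one only in common with ROS1, so these 3 genes are not analysed here. Of the 32 genes, 30 had a mean level above the 25th percentile of all genes, a log2 value of 5.5, and were tested among 13812 genes. TLN2 and FERMT2 lay below that level.

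The arrays came from HT29, an established line of human colorectal adenocarcinoma cells. In 3 arrays the cells carried a control expression construct and in 3 a laminin α1 expression construct, and both groups had been grown for 7 days. Each array is a separate culture passage, so the errors and p values below measure the spread between passages. The labels do not give the promoter that drives the construct, nor how many clones carry it, so effects of the construct and of particular clones cannot be told apart. LAMA1, the gene of the laminin α1 chain, had a difference of 0.09 (95% interval -0.05 to 0.24) and did not pass the test (adjusted p = 0.535), so its probe set does not check the labels. All values are RMA log2 expression values, and differences are laminin α1 minus control.

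Laminins are basement membrane proteins that cells bind through integrins. Inside the cell, talin and kindlin bind the integrin tail, vinculin and α-actinin tie it to actin, and a kinase complex around FAK, paxillin and p130Cas passes on signals. Tropomyosins and calponins lie along the filaments and set which other proteins can bind them, while cofilin and the cyclase-associated proteins take filaments apart. In colon epithelium this machinery anchors cells to the basement membrane and carries the tension of the cell sheet.

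Of the tested genes in the list, 7 passed the threshold. None was called among the kinase and scaffold genes, those for ILK, PINCH and parvin, or those for talins, kindlins and vinculin. Each of these groups held 3 tested genes, so few that 0 calls lies near the share of all genes called, given below. CNN3, a calponin, rose 1.84-fold, MSN, which encodes moesin, rose 1.44-fold, and the tensin genes TNS1 and TNS4 rose 1.30-fold and 1.21-fold. CAP2, a cyclase-associated protein, fell at least 2.41-fold, since its laminin α1 arrays lay below the level filter, TPM1, a tropomyosin, fell 1.52-fold, and ZYX, which encodes zyxin, fell 1.26-fold. The limma test with Benjamini-Hochberg adjustment over all genes thus called 4 of the 30 tested genes higher and 3 lower, of which CAP2 entered the test through its control arrays. Across all 13812 genes, 5.29% were called, 2.69% higher and 2.59% lower. The median difference of the 30 genes was 0.0132, beside -0.0115 for all genes tested. The median size of a difference, regardless of sign, was 0.0618 in the 30 genes and 0.0760 in all genes tested. The arrays of the groups did not overlap for 11 of the 30 genes, and the same held for 21.6% of all genes. The list was drawn up with earlier results of these data known, so setting its shares beside those of all genes is not a test.

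**Figure D1:**
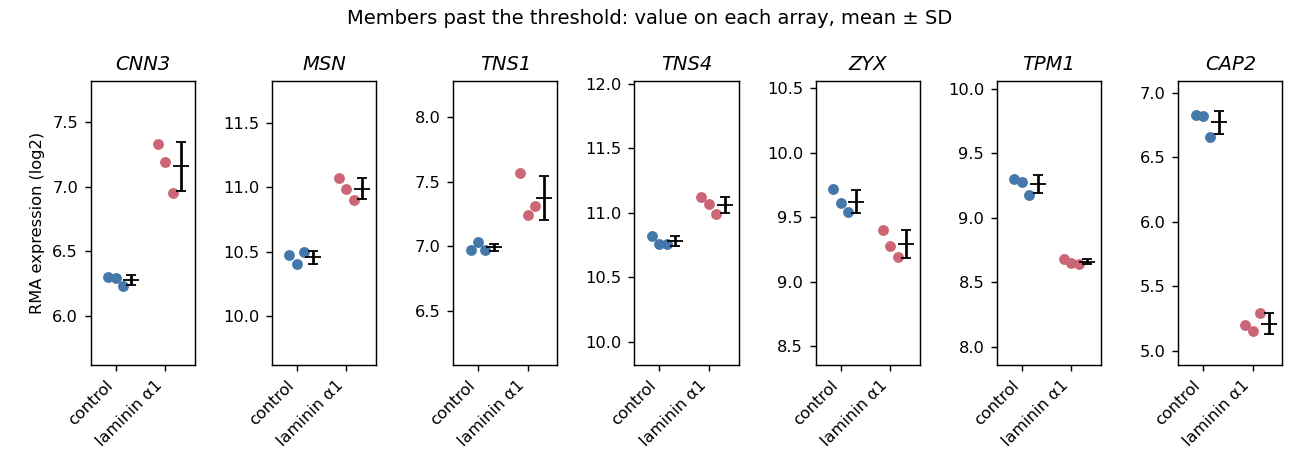
Log2 RMA expression of the 7 genes called, with a point for each of 3 control (blue) and 3 laminin α1 (red) arrays and the group mean ± SD in black; every panel spans the same range of log2 units. The groups are apart in all 7 panels, from CNN3, up by 0.88, to CAP2, which fell by 1.55.

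Beside these values, the upstream sequence of the 4 genes with the largest differences and of CNN2, the calponin gene next to CNN3 in the family, is given below. Each is the 250 bases before the start site farthest upstream, from RefSeq on build GRCh38.p14, 5′ to 3′ on the strand of the gene. The windows are chr1:94927111-94927360 on the minus strand for CNN3, and on the plus strand chr19:1026358-1026607 for CNN2, chr15:63048239-63048488 for TPM1, chr6:17393345-17393594 for CAP2 and chrX:65588127-65588376 for MSN. Capitals mark 3 motifs searched on both strands: the CArG box bound by SRF, a main regulator of actin genes, GGAATG, the core bound by TEAD factors, and GGGCGG, the core of the GC box bound by SP1.
CNN3: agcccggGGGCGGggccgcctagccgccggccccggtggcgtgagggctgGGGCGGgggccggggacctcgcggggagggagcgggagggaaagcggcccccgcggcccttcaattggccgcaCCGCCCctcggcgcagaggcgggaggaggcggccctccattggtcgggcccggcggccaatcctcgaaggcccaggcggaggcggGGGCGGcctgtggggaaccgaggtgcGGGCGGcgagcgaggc
CNN2: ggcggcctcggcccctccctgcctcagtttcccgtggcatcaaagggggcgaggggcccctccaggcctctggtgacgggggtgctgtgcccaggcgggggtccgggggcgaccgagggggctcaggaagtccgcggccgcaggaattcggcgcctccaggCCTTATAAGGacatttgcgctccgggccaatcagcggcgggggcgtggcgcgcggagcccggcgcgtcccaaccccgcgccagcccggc
TPM1: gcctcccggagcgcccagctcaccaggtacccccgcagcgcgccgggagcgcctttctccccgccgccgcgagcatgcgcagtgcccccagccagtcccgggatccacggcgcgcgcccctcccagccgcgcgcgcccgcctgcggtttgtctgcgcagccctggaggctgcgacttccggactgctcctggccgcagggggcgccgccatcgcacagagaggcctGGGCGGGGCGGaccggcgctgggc
CAP2: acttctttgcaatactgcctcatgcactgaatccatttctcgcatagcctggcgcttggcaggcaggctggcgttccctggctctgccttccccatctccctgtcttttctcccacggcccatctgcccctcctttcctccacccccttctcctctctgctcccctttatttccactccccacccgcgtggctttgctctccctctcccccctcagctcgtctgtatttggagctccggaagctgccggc
MSN: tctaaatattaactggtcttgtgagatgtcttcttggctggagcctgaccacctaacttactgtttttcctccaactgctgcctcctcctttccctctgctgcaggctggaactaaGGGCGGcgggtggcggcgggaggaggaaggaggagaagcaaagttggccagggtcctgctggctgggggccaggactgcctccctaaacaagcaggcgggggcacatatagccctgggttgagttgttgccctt
In these windows CNN3 held 5 GGGCGG matches and MSN 1. TPM1 held 2, which overlap. CNN2 held 1 CArG box, 89 bases before its start, and CAP2 held none of the 3 motifs. Over all start sites listed for the 23 tested genes with a promoter, a CArG box was found for ACTG1, ACTN1, CNN2 and TPM4, and none of these was called. It was in 4 of their 48 promoters and in 1.16% of all 35116 promoters. GGAATG was found for ACTN1, CNN3, PXN, TNS1 and VCL, in 6 of the 48 promoters and 11.9% of all, and GGGCGG in 32 of the 48 and 42.6% of all. The 48 promoters belong to genes above the level filter, a limit not set on all 35116, so the shares compare unlike sets. Start sites of a gene can lie close together, so promoters are not independent, and a match shows only that the letters are present.

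The kinase and scaffold genes were followed first. PTK2, which encodes focal adhesion kinase (FAK), had 11.24, 11.27 and 11.28 in control and 11.13, 11.20 and 11.33 in laminin α1 arrays. The laminin α1 arrays lay on both sides of the control arrays, and the difference was -0.04 (95% interval -0.20 to 0.11). PXN, the scaffold paxillin, had 8.51, 8.41 and 8.42 against 8.52, 8.46 and 8.34, with a difference of -0.0029 (95% interval -0.16 to 0.16). A second PXN probe set gave -0.10 (95% interval -0.24 to 0.04), so neither probe set showed a difference past the test. BCAR1 encodes p130Cas, a docking protein that is phosphorylated when adhesions are stretched. Its values were 8.72, 8.58 and 8.59 in control and 8.99, 8.76 and 8.73 in laminin α1 arrays. The groups came close without overlapping, and the difference of 0.19 (95% interval 0.0051 to 0.38) did not pass (adjusted p = 0.282).

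The complex of integrin-linked kinase, PINCH and parvin joins the integrin tail to actin. ILK had 9.80, 9.80 and 9.71 in control and 9.99, 9.89 and 9.79 in laminin α1 arrays. These ranges overlapped, and the difference was 0.12 (95% interval -0.04 to 0.28, adjusted p = 0.444). LIMS1, which encodes PINCH, and PARVA, the α-parvin gene, had differences of -0.01 (95% interval -0.15 to 0.12) and 0.01 (95% interval -0.14 to 0.16). LIMS1 has close copies, LIMS3 and LIMS4, and probe sets annotated to several of these genes were left out.

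Talins and kindlins switch integrins to their active form. TLN1 had 9.14, 9.03 and 8.96 in control and 9.35, 9.10 and 8.99 in laminin α1 arrays, a difference of 0.10 (95% interval -0.11 to 0.32). The groups overlapped. FERMT1, the kindlin of epithelial cells, differed by -0.01 (95% interval -0.17 to 0.15). VCL, the vinculin gene, differed by 0.06 (95% interval -0.20 to 0.32), and its arrays ranged from 8.09 to 8.46 in control and from 8.15 to 8.54 with laminin α1. TLN2, at means of 5.43 and 5.35, and FERMT2, a kindlin of mesenchymal cells, at 4.14 and 4.05, were below the level tested. In the limma fit without that filter neither passed (adjusted p = 0.723 and 0.609).

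Zyxin and VASP sit where filaments grow and are mended at adhesions under tension. ZYX had 9.72, 9.61 and 9.54 in control and 9.40, 9.28 and 9.19 in laminin α1 arrays. Every laminin α1 array was below every control array. The difference was -0.33 (SE 0.08, 95% interval -0.50 to -0.16, adjusted p = 0.0379). VASP, which binds zyxin and speeds filament growth, had means of 9.36 ± 0.09 and 9.40 ± 0.10 (SD, n = 3) and a difference of 0.04 (95% interval -0.13 to 0.21). With 1 array left out, the ZYX difference stayed between -0.28 and -0.37 in the fits that lost its call. The call was lost in the limma fit without any one control array (adjusted p = 0.140, 0.134 and 0.0517 without replicates 1, 2 and 3), without laminin α1 replicate 2 (adjusted p = 0.147) and without laminin α1 replicate 3 (adjusted p = 0.0610). Repeated quantile normalization also ended it (adjusted p = 0.0532), as did testing every probe set on its own (adjusted p = 0.112).

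Tensins bind actin and the tails of integrins, and TNS4, the short form also called Cten, lacks the actin-binding part of the others. TNS1 had 6.97, 7.03 and 6.97 in control and 7.57, 7.24 and 7.31 in laminin α1 arrays. All laminin α1 arrays were above the control arrays, with replicate 1 the highest by a clear margin. The difference was 0.38 (SE 0.09, 95% interval 0.19 to 0.58, adjusted p = 0.0326). TNS4 had 10.82, 10.76 and 10.76 against 11.12, 11.07 and 10.99, again with no overlap, and a difference of 0.27 (SE 0.06, 95% interval 0.13 to 0.42, adjusted p = 0.0365). TNS3 did not pass the test: its means were 8.23 ± 0.06 and 8.19 ± 0.07 (SD, n = 3), and its interval ran from -0.19 to 0.11. Within each array, the log2 ratio of TNS1 to TNS3 was higher by 0.42 and that of TNS4 to TNS3 by 0.32 with laminin α1, and for both ratios the groups were apart. These ratios were chosen with the differences known and were not tested.

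With an array fewer, the tensin genes lost their calls in several fits while the differences stayed about as large. The call of TNS1 was lost in the limma fit without control replicate 1, 2 or 3 (adjusted p = 0.113, 0.102 and 0.0973), with differences of 0.37, 0.40 and 0.37. That of TNS4 was lost without each of these (adjusted p = 0.0800, 0.178 and 0.115) and without laminin α1 replicate 1 (adjusted p = 0.0848) or 2 (adjusted p = 0.155), with differences from 0.25 to 0.30. Testing every probe set on its own ended both (adjusted p = 0.111 for TNS1 and 0.0869 for TNS4). Without any one control array, 2 of the genes described here were therefore called higher, MSN and CNN3.

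Of ACTN1, ACTN4, MSN and CAV1, which cross-link filaments or act at the membrane, MSN passed. The α-actinin genes ACTN1 and ACTN4 had differences of 0.02 (95% interval -0.17 to 0.20) and 0.03 (95% interval -0.12 to 0.17). MSN encodes moesin, which joins actin to the plasma membrane as ezrin does, and is usually the main such protein of blood and endothelial cells, with ezrin the main one in gut epithelium. It had 10.48, 10.41 and 10.50 in control and 11.07, 10.99 and 10.90 in laminin α1 arrays. The groups were far apart for the spread within them, with a difference of 0.52 (SE 0.07, 95% interval 0.37 to 0.68, adjusted p = 0.00128). CAV1, the coat protein of caveolae, lay near the level filter at 5.51 ± 0.12 and 5.57 ± 0.03 (SD, n = 3), with an interval of -0.10 to 0.23.

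The actin genes themselves lay at the top of the array range. ACTB, which encodes β-actin, had 13.14, 13.11 and 13.06 in control and 13.17, 13.10 and 13.04 in laminin α1 arrays. ACTG1, which encodes γ-actin, had 12.82, 12.72 and 12.69 against 12.78, 12.73 and 12.70. The groups covered the same range for both genes, and the intervals of the differences were -0.14 to 0.15 and -0.15 to 0.14. Both have near-identical copies elsewhere in the genome, so the share of each gene in its signal is uncertain, and probes this bright may respond little to a change.

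Of the genes for filament turnover, CFL1, which encodes the severing protein cofilin, had means of 12.54 ± 0.01 and 12.58 ± 0.03 (SD, n = 3) and an interval of -0.09 to 0.17. CAP2 moved more than any other gene described here. CAP2 encodes the cyclase-associated protein found mainly in muscle, heart and brain, which frees actin monomers for reuse and works with cofilin. Its values were 6.83, 6.82 and 6.66 in control and 5.20, 5.15 and 5.29 in laminin α1 arrays. The laminin α1 arrays all lay below the level filter of 5.5 and the control arrays all above it. The difference was -1.55 (SE 0.07, 95% interval -1.72 to -1.39, adjusted p = 1.93e-06). The measured means differ 2.93-fold, and with the filter level as the floor the fall was at least 2.41-fold.

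The 3 tropomyosin genes of the list all had lower values with laminin α1 in the probe sets used, and 1 passed. TPM3, which is not in the list, had no probe set annotated to it alone. TPM1 had 9.30, 9.28 and 9.18 in control and 8.68, 8.65 and 8.64 in laminin α1 arrays, which were tightly grouped below the control arrays. The difference was -0.60 (SE 0.06, 95% interval -0.74 to -0.46, adjusted p = 0.000365). TPM2 had 8.91, 8.84 and 8.75 against 8.75, 8.67 and 8.59, where the highest laminin α1 array and the lowest control array were equal at this rounding. Its difference of -0.16 (SE 0.07) did not pass (adjusted p = 0.295). TPM4 had 10.15, 10.13 and 10.16 against 10.06, 10.13 and 10.08, with the highest laminin α1 array and the lowest control array equal at this rounding. The difference was -0.06 (95% interval -0.19 to 0.08), while its second probe set gave 0.09 (95% interval -0.12 to 0.29). The sign for TPM4 thus differed between probe sets. The log2 ratio of TPM1 to TPM2 within an array was 0.44 lower with laminin α1 on average. Control arrays ran from 0.40 to 0.44 and laminin α1 arrays from -0.07 to 0.05. This ratio was chosen with the differences known and was not tested. Tropomyosin genes make many splice forms and are alike in sequence, and these probe sets do not separate the forms.

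Among the calponins CNN3 passed the test, and CNN1 and CNN2 did not. CNN3 encodes acidic calponin, a form found outside smooth muscle, which binds and steadies actin filaments. It had 6.30, 6.29 and 6.23 in control and 7.33, 7.19 and 6.95 in laminin α1 arrays. The control arrays were nearly equal and the laminin α1 arrays all higher, with a difference of 0.88 (SE 0.09, 95% interval 0.67 to 1.09, adjusted p = 0.000335). CNN2 had means of 11.13 ± 0.14 and 11.35 ± 0.10 (SD, n = 3), a difference of 0.21 (95% interval 0.02 to 0.40, adjusted p = 0.235), and its groups overlapped. CNN1, the calponin of smooth muscle, differed by 0.10 (95% interval -0.13 to 0.33). The log2 ratio of CNN3 to CNN2, not tested, was higher in the laminin α1 arrays by 0.67 on average, and the arrays of the groups did not overlap in it.

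TAGLN, which encodes the smooth muscle protein transgelin, had 5.61, 5.70 and 5.59 in control and 5.45, 5.47 and 5.37 in laminin α1 arrays. All laminin α1 arrays were lower and below the level filter, and the difference of -0.20 (95% interval -0.35 to -0.05) did not pass (adjusted p = 0.132). MYL9, a regulatory light chain of myosin II, had means of 6.96 ± 0.01 and 6.94 ± 0.03 (SD, n = 3). Across the groups of genes, the 23 tested genes that were not called had differences from -0.20 to 0.21. The lowest bound of their intervals was -0.35 and the highest 0.40.

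**Figure D2:**
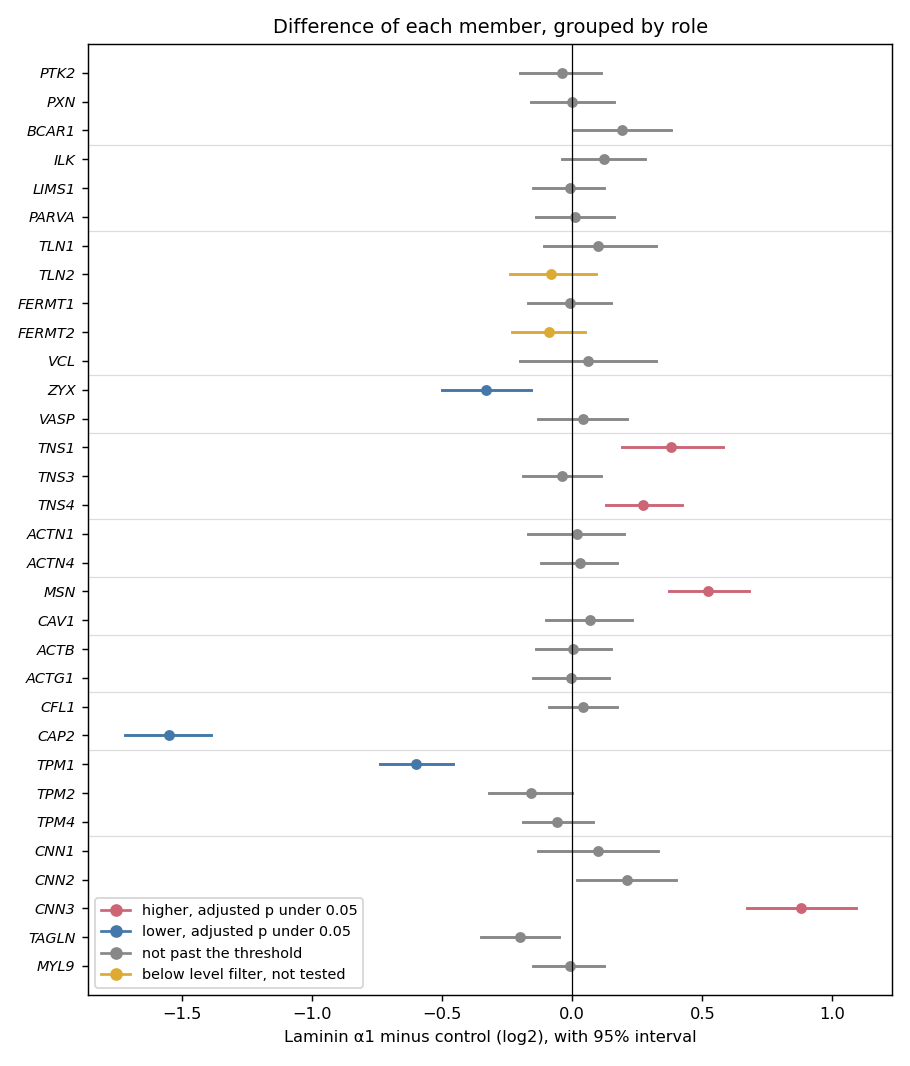
Log2 difference, laminin α1 minus control, of the 32 genes with its 95% interval from limma, in order of role with grey lines between roles. The genes past the threshold in red (MSN, CNN3, TNS1, TNS4) and blue (CAP2, TPM1, ZYX) stand outside the band of -0.20 to 0.21 that holds the 23 other tested genes.

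The spread between passages was similar to that of other genes. The median SD within a group was 0.0771 over the 30 genes and 0.0914 over all genes tested, and among the 30 it ran from 0.0223 for MYL9 to 0.195 for VCL. The high and low arrays recurred. Control replicate 1 was the highest control array for 20 of the 30 genes and for 48.8% of all genes tested. Laminin α1 replicate 1 was the highest of its group for 22 of the 30, against 43.2% of all genes. Replicate 3 was the lowest control array for 21 of the 30 (43.4% of all genes) and the lowest laminin α1 array for 22 (43.6% of all genes). These genes share arrays, so the counts describe 6 arrays and not 30 separate observations.

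The wider machinery was read from 3 further lists, none of whose genes belong to the 35. Among 32 tested focal adhesion proteins other than those above, the limma test called 0, with 10 (31.2%) at an unadjusted p under 0.05, against 16.7% of all genes tested. PALLD, which encodes the actin scaffold palladin, lay below the level filter and was not among them. In the limma fit without that filter it had means of 5.65 and 5.13 and a difference of -0.52 (adjusted p = 0.0221). Of 12 genes around SRF, the factor that drives many actin genes, it called 0, with 3 (25%) at an unadjusted p under 0.05. Of 44 other actin filament proteins, 2 were called higher and 2 lower, with 10 (22.7%) at an unadjusted p under 0.05. Together 4 of 88 tested genes were called, or 4.55%, near the 5.29% of all genes. The median differences of these 3 lists lay between -0.0501 and 0.0130.

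The 4 genes called in these lists all bind filaments at their ends or sides. TMOD2, a tropomodulin that caps the slow-growing filament end, rose from 5.72 ± 0.16 to 6.26 ± 0.12 (SD, n = 3; difference 0.53, SE 0.09, adjusted p = 0.00811). TMOD1, its relative, fell from 6.64 ± 0.10 to 6.26 ± 0.16 (adjusted p = 0.0358). CORO1A, a coronin best known from blood cells, rose from 7.17 ± 0.13 to 7.56 ± 0.11 (adjusted p = 0.0271), and PLS3, a bundling plastin, fell from 9.74 ± 0.23 to 9.18 ± 0.23 (adjusted p = 0.0393). The values of TMOD1 and TMOD2 moved in opposite directions, and both genes have similar relatives. TMOD2 stayed past the threshold whichever array was left out (adjusted p from 0.00615 to 0.0421). CORO1A was lost without any one array except laminin α1 replicate 3, with adjusted p up to 0.105 and differences from 0.32 to 0.43. PLS3 was lost without control replicate 2 or 3 or laminin α1 replicate 1 or 2 (up to 0.156, differences from -0.43 to -0.58), and TMOD1 without any one control array or laminin α1 replicate 2 (up to 0.166, differences from -0.34 to -0.44). Centring the arrays ended the call of PLS3 (adjusted p = 0.0640) and repeated quantile normalization that of TMOD1 (adjusted p = 0.0629), and testing every probe set on its own ended those of CORO1A, TMOD1 and PLS3 (adjusted p = 0.0980, 0.121 and 0.152).

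**Figure D3:**
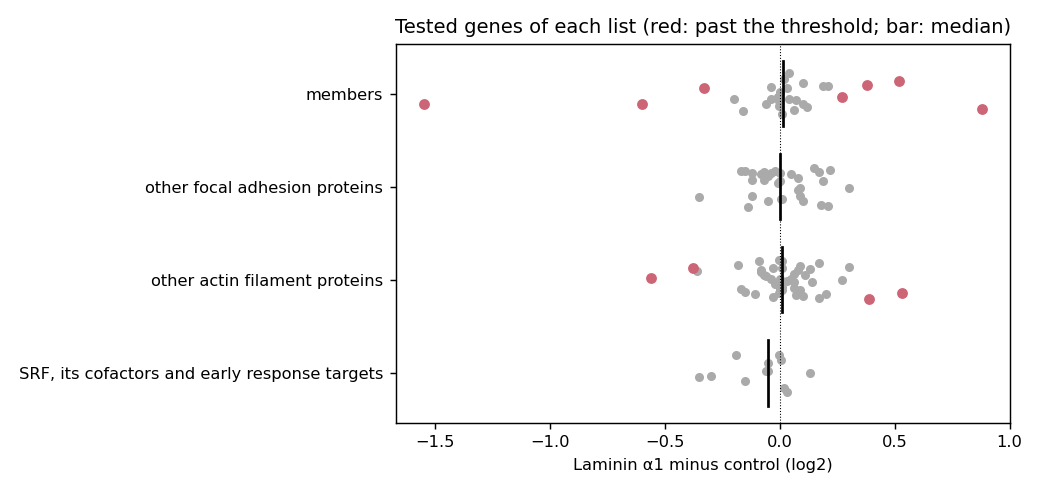
Log2 differences, laminin α1 minus control, of the tested genes in the 35-gene list (members) and in 3 further lists; each point is a gene, red where the limma test called it, and the black bar is the median. The members reach from -1.55 to 0.88, while the 44 other actin filament proteins reach from -0.56 to 0.53 and the focal adhesion and SRF lists hold no red point.

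Several of these genes are also markers of other cells, so marker lists were read beside them. All 13 colon epithelial markers had a mean over the 6 arrays above the level filter. Their linear signals summed to between 31810 and 34381 in control and between 30682 and 32139 in laminin α1 arrays, and 5 of the 13 fell, namely CDH17, CEACAM5, GPA33, KRT20 and LGALS4. That is 38.5%, beside 5.29% of all genes called and 2.59% called lower. The marker lists were chosen with earlier results of these data known, so setting these shares side by side is not a test. The differences of these 5 were -1.65, -1.17, -0.63, -0.35 and -0.31, in the order named. The other 8 (EPCAM, CDH1, KRT8, KRT18, KRT19, CDX1, CDX2 and VIL1) were not called, with differences from -0.12 for EPCAM to 0.07 for KRT18. CDH17, a cadherin of gut epithelium, was below the filter in the laminin α1 arrays, passed it through the control arrays and, taking that filter as its floor, fell at least 2.12-fold. Of 17 smooth muscle and fibroblast markers 10 were above the filter, namely ACTA2, MYH11, DES, SYNM, SMTN, COL1A1, COL1A2, COL3A1, PDGFRB and THY1. ACTG2, LMOD1, DCN, LUM, PDGFRA, FAP and POSTN were below it. The summed signal of the 17 was 1221 to 1336 in control and 1228 to 1257 in laminin α1 arrays. Of the 10, limma called 0, with 1 at an unadjusted p under 0.05. Of 10 endothelial and blood cell markers 3 were above the filter, namely CDH5, CD68 and CD14. PECAM1, VWF, KDR, TEK, PTPRC, CD3E and HBB were below it. The sum of the 10 was 611 to 654 against 632 to 689. Of the 3, limma called 0, with 1, CD14, at an unadjusted p under 0.05 (difference 0.20). The part of the epithelial markers in the results above was not tested. Fewer cells of a type and less RNA per cell cannot be told apart in these cultures.

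**Figure D4:**
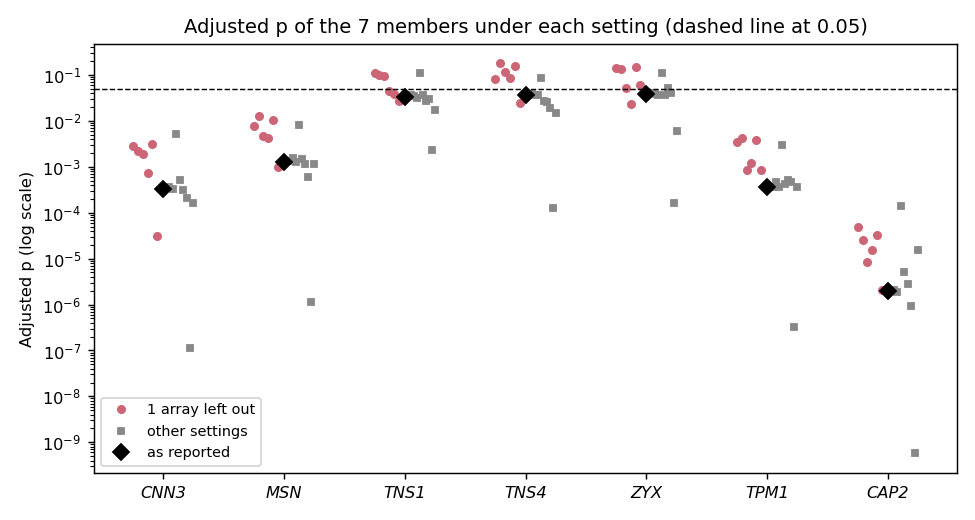
Adjusted p from limma on a log axis for the 7 called genes, as reported (black), with 1 array left out (red) and under the other settings (grey), and a dashed line at 0.05. CNN3, MSN, TPM1 and CAP2 stay below the line in every fit in which they were tested, while TNS1, TNS4 and ZYX cross it when some arrays are left out.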

How the data were processed

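Expression was measured on 6 arrays of HT29 cells, 3 per group. The deposited values are log2 values per probe set. The submitters' processing notes name RMA and Affymetrix Expression Console 1.1 as the tools; the probe set library is not stated. RMA equalises the distributions of the arrays, so a change of all genes together cannot be seen. The values were used as deposited. Of 33297 probe sets, 19460 had 1 symbol in the platform annotation. Differences were fitted without covariates over 13812 genes by lmFit and eBayes in limma 3.58.1 (R 4.3.3), after testing the script on simulated data. Adjusted p values use the Benjamini-Hochberg method over all genes tested, with a threshold of 0.05. The number of arrays limits the precision, and the median SE was 0.0754. Members and lists were chosen with earlier results of these data known. Values of every array are given for genes past the threshold, for others whose groups did not overlap, and for PTK2, PXN, ILK, TLN1, ACTB and ACTG1. From the other actin and adhesion lists, up to 4 called genes were named, and called markers were named whatever their number. PALLD was named after its values were seen; a further list is not reported here. The floor for CAP2, the ratios between family members, the motifs and the neighbouring genes were added after seeing the data. RefSeq promoters were matched for 28 of the 35 genes by symbol. Those of FERMT1, PARVA, TAGLN, MYL9, ACTB, PTK2 and TNS4 were not used. Alternatives covered the level filter, the choice of probe set, scaling, eBayes, array weights, a replicate block, the threshold and each array left out.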

Additional observations from a re-analysis of the deposited data

How the results depend on the processing

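CNN3, MSN, CAP2 and TPM1 were called under every alternative in which they were tested, CNN3 and CAP2 being below the filter at the 50th percentile. No member's call changed direction. Of the 23 members not called, 18 stayed so throughout, and BCAR1, CAV1, CNN2, TPM2 and TAGLN passed with array weights. That weighting stopped before it converged, gave control replicate 2 a weight of 10.7 and laminin α1 replicate 1 one of 0.317, and called 4691 genes in all, so its counts are of little use.

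The count of members called higher, 4 as reported, was 3 with the filter at the 50th percentile and 7 with array weights. It was 2 with every probe set tested separately and 2 at an adjusted p under 0.01. Over the arrays left out it ranged from 2 to 4. The count lower, 3 as reported, was 2 with the filter at the 50th percentile and 2 with every probe set tested separately. It was also 2 with repeated quantile normalization, 2 at an adjusted p under 0.01 and 5 with array weights. Over the arrays left out it ranged from 2 to 3. In the 3 other lists the 2 higher became 1 with the filter at the 50th percentile, 1 with every probe set separately, 1 at 0.01 and 22 with array weights, with 1 to 4 over the arrays left out. The 2 lower became 3 without the level filter, where PALLD was added, 1 with the filter at the 50th percentile, 1 with centred arrays, 1 with repeated quantile normalization, 0 with every probe set separately, 0 at 0.01 and 16 with array weights, with 0 to 4 over the arrays left out. Apart from the thresholds and the number of genes or arrays, the cause was not tested. Over all genes, 730 calls became 442 with every probe set separately, 393 at 0.01, and 407 without control replicate 2 to 1214 without laminin α1 replicate 3.

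Same-numbered passages did not all deviate together: the correlations of their deviations over genes were 0.390, 0.0216 and 0.530 for numbers 1, 2 and 3. Those of numbers 1 and 3 were the highest of all pairs. Control replicate 3 with laminin α1 replicate 1 gave -0.435, and control replicate 1 with laminin α1 replicate 3 gave -0.487. Control replicate 2 correlated best with laminin α1 replicate 1 (0.144). An effect shared by passages of the same number was not tested. With the replicate number as a block, 1596 genes were called, 5 members higher (CNN2 added), 4 lower (TAGLN added), and 7 higher and 6 lower in the other lists. ZYX, TNS1 and TNS4 kept their calls in that limma fit, with adjusted p = 0.0061, 0.0176 and 0.0148.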

Other observations

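The genes called here were also read against their neighbours on the chromosome, taking 5 tested genes on each side in the RefSeq order of GRCh38.p14. The median difference of the 10 neighbours lay between -0.13 for CNN3 and 0.07 for CAP2, and was -0.07 for ZYX, -0.12 for TPM1 and -0.05 for MSN. For CNN3, CAP2 and MSN the median had the sign opposite to the gene itself. For TPM1 and ZYX 8 of 10 neighbours had the sign of the gene, against 6 for TNS1, 5 for TNS4, 4 for MSN and 3 each for CAP2 and CNN3. Over all genes tested the median difference was -0.0115 and 5.29% were called. An effect of the region was not tested. The limma test called FAM131B (-0.57, adjusted p = 0.00517) and TCAF1 (-0.35, adjusted p = 0.0266) beside ZYX, both lower as ZYX was. Beside CAP2 it called KIF13A lower (-0.40, adjusted p = 0.00376) and GMPR higher (0.41, adjusted p = 0.0391). IGFBP2, which encodes an insulin-like growth factor binding protein and neighbours TNS1, fell by 1.11 (adjusted p = 9.28e-06) while TNS1 rose, and SLC44A3 fell by 0.51 (adjusted p = 0.00325) beside CNN3. None of the neighbours of MSN, TPM1 and TNS4 was called. These genes were named after their values had been seen.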
